A study of Homo sapiens with 8 samples.

Results

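Collagens, laminins and matrix glycoproteins build the extracellular scaffold on which epithelial cells rest. The genes described here were the 77 rows of the count table, out of 30434, whose symbol names a collagen chain (40 genes), a laminin chain (12 genes) or 1 of 25 further matrix genes, among them SPARC and its relatives, fibronectin, fibulins, thrombospondins and lysyl oxidases. Laminins are secreted as trimers of an alpha, a beta and a gamma chain and polymerise at the cell surface, where type IV collagen forms a second network and agrin and perlecan link them. Collagen molecules are likewise trimers, whose chains come from a single gene or from several, depending on the collagen type. Breast epithelium lies on such a basement membrane, while fibrillar collagens are mostly made by stromal cells.

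Expression was measured by RNA sequencing of bulk cultures of SKBR3, a human breast cancer cell line with amplified ERBB2 (HER2), in a study that asked how the transcription factor FOXA1 acts on HER2-related pathways. The control group comprised 4 libraries from SKBR3 cells labelled WT, and the knockdown group 4 libraries from SKBR3 cells of a stable line made by lentiviral transduction with 3 short hairpin RNAs against FOXA1. Both were grown in DMEM with serum. The sources used here do not say whether control cells received a vector, whether the hairpins were pooled, whether the line is a clone, or whether replicates came from separate cultures, so p-values measure only the spread between these libraries, which may be technical. Levels are given as CPM, counts scaled to 1000000 per library after TMM normalisation, and differences as log2 fold changes, knockdown minus control. In bulk RNA, fewer cells that use a gene and less of its RNA per cell cannot be told apart.

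Library totals ran from 19087878 to 23786684 counts, so 3 counts, which set the bound for a fold over genes absent in control, stood for at most 0.142 CPM in control and 0.153 CPM in knockdown. On the second principal component, with 1.82% of the variance, control replicate 3 lay away from the remaining libraries. FOXA1 had 4180, 4239, 4071 and 4397 counts in control and 89, 87, 83 and 92 in knockdown, which left 2.06% of the control level. ERBB2 fell from 7308 CPM ± 365 to 1340.0 CPM ± 52.9 (SD), and the 8 luminal and HER2 amplicon markers summed to between 19031 and 21180 CPM in control and between 11830 and 12737 CPM in knockdown. They did not fall together: KRT8, KRT18 and EPCAM rose, by 0.31, 0.58 and 0.33 on the log2 scale, and the other 5 fell. Markers of other cells that make matrix were examined because the genes below are also stromal. The fibroblast markers PDGFRA and DCN, the endothelial markers PECAM1 and KDR and the blood cell marker PTPRC averaged at most 0.150 CPM in either group. Summed over the 11 fibroblast and mesenchymal markers found, the level was between 155 and 166 CPM in control and between 65.5 and 74.0 CPM in knockdown, most of it from S100A4 (154 CPM ± 4.83 and 59.3 CPM ± 4.33). S100A4 and ACTA2 fell, and TAGLN rose from 2.09 CPM ± 0.288 to 3.77 CPM ± 0.417 (edgeR adjusted p 8.66e-06). THY1 was not called (edgeR adjusted p 0.863). VIM, FAP and CDH11 were below the filter, VIM at 0.0334 CPM ± 0.0417 in control and 0.417 CPM ± 0.0858 in knockdown. The mesenchymal cadherin CDH2 (0.0232 CPM ± 0.0268 and 1.94 CPM ± 0.321) and the pericyte receptor PDGFRB (0.410 CPM ± 0.110 and 2.83 CPM ± 0.476) were low in both groups and higher in knockdown (SD, n = 4 each; edgeR adjusted p 2.35e-12 and 2.99e-11). The 7 basal and myoepithelial markers found summed to between 6.32 and 8.27 CPM in control and between 13.8 and 15.3 CPM in knockdown, where TP63 rose from 0.147 CPM ± 0.0429 to 7.86 CPM ± 0.552. Of the other basal markers, OXTR also rose, KRT17 (1.22 CPM ± 0.213 and 0.180 CPM ± 0.0925) and ACTA2 (1.33 CPM ± 0.264 and 0.0674 CPM ± 0.0252) fell, and KRT5 and MYH11 were not called. The 5 endothelial markers summed to between 20.8 and 22.2 CPM in control and between 19.9 and 22.4 CPM in knockdown, mainly from CDH5. These similar sums hid opposite changes. CDH5 rose from 16.1 CPM ± 0.295 to 20.1 CPM ± 1.36, and VWF fell from 5.22 CPM ± 0.584 to 0.845 CPM ± 0.218 (edgeR adjusted p 6.28e-05 and 3.31e-13). The 3 blood cell markers found summed to between 4.63 and 5.82 CPM in control and between 0.648 and 1.62 CPM in knockdown, where CD68 fell from 4.94 CPM ± 0.632 to 0.589 CPM ± 0.406 and CD14 rose from 0.181 CPM ± 0.0630 to 0.533 CPM ± 0.0905. The part of these shifts in the matrix results was not tested.

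Knockdown libraries carried more matrix transcript than control libraries, in different proportions between the genes. The 77 genes took 0.321% ± 0.00657 of all counts in control and 0.684% ± 0.0188 in knockdown (SD, n = 4 each). SPARC, FBLN1, LAMA5 and LAMC1, singled out after their values were seen, made up 30.4% ± 0.461 of these matrix counts in control and 60.4% ± 0.347 in knockdown. The filter on low counts kept 48 of the 77 genes and left out 29. By edgeR's quasi-likelihood test, at an adjusted p under 0.05, 27 of the 48 were higher and 15 lower in knockdown, beside 39.4% higher and 37.7% lower among all genes tested. The remaining 6 were not called, so 87.5% were called, beside 77.1% of all 16430 genes tested. At least 2-fold changes were called for 21 higher and 8 lower genes, 60.4% of the 48, beside 28.3% of all genes tested (14.9% higher and 13.4% lower). The 2 groups had separate ranges of CPM for 38 of the 48 (79.2%), beside 72.0% of all genes tested. The median log2 fold change was 0.45 over the 48 and 0.02 over all genes tested, and the median size regardless of sign was 1.43 and 0.51. These summaries are descriptions only. Of the 48, 7 had fewer than 10 counts in every control library and passed only because they were high in knockdown. COL14A1, COL6A1, COL7A1, MATN2 and LAMA1, each with fewer than 10 counts in a control library, also needed their knockdown libraries to pass. All of these genes were called higher, so the number called higher depends in part on the filter. COL17A1, with 11, 5, 6 and 7 counts in control, likewise needed its knockdown libraries to pass but was not called. Restricted to genes averaging 50 counts or more over all 8 libraries, 33 matrix genes were tested. Of these, 17 were higher (12 by at least 2-fold) and 13 lower (7 by at least 2-fold). Among all genes so tested 41.9% were higher and 40.8% lower. A gene high in a single group could still pass, as SPARC and COL21A1 did through knockdown and COL5A2 through control. The numbers called under this restriction therefore also depend in part on the filter.

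**Figure D1:**
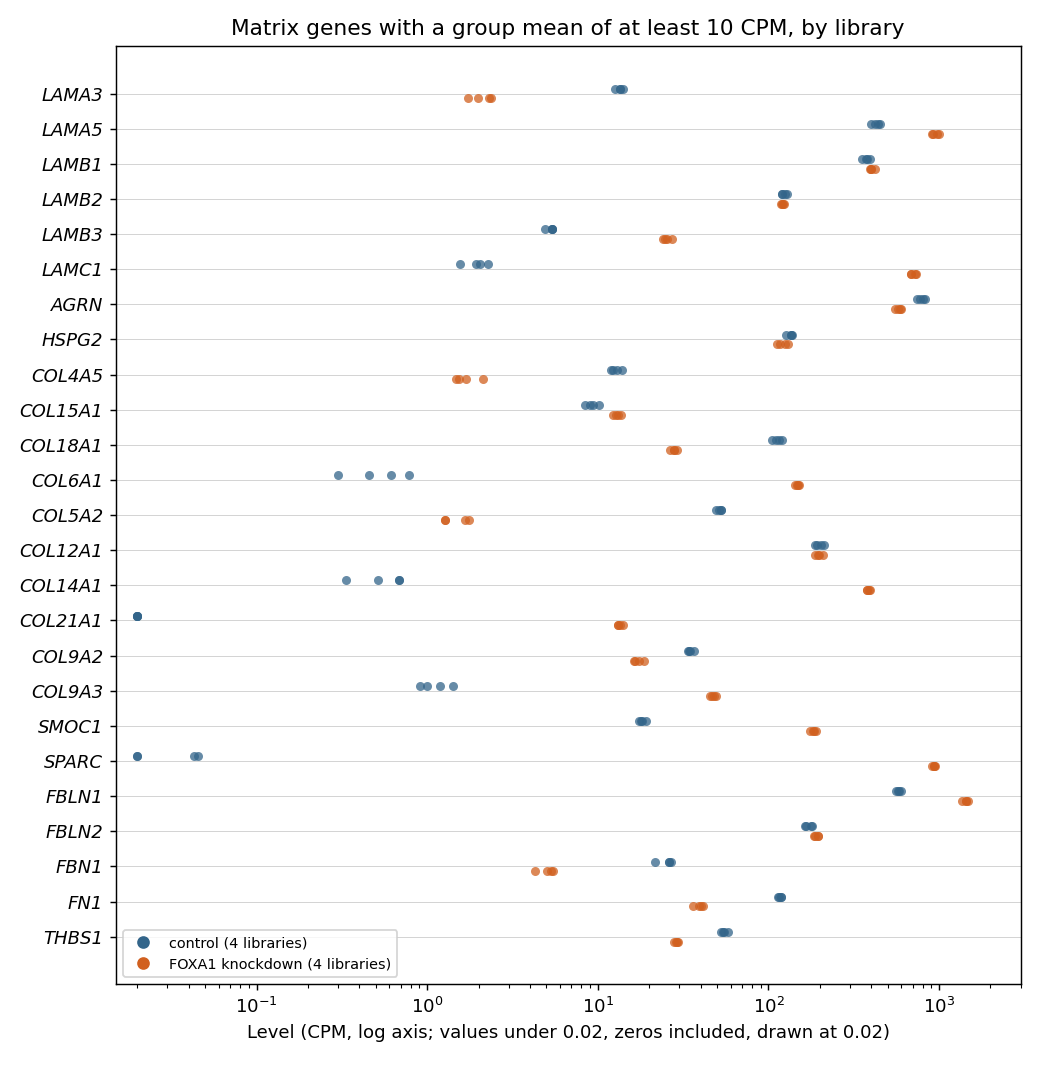
Level in CPM (log axis) of the 25 matrix genes that averaged 10 CPM or more in a group, 1 point per library, blue for control and orange for FOXA1 knockdown; values under 0.02 CPM are drawn at 0.02. SPARC and COL21A1 sit at or near 0 in control, and 13 genes are called higher, 10 lower and 2, LAMB2 and COL12A1, in neither direction.

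To set sequence beside these changes, the 250 bases before the gene start are shown for LAMC1 and LAMA5, which rose, and for COL4A5 and THBS1, which fell. Each stretch lies outside the gene as GENCODE 29 gives it and overlaps no exon there. They come from RefSeq on GRCh38.p14, run 5′ to 3′ on the gene's strand, and have CG dinucleotides in capitals.
LAMC1 (chr1:183023170-183023419, plus strand): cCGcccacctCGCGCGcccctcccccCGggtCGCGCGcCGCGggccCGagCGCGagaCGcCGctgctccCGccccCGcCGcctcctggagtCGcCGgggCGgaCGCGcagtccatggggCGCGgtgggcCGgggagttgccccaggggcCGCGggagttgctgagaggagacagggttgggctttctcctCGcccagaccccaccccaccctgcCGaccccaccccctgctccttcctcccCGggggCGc
LAMA5 (chr20:62367313-62367562, minus strand): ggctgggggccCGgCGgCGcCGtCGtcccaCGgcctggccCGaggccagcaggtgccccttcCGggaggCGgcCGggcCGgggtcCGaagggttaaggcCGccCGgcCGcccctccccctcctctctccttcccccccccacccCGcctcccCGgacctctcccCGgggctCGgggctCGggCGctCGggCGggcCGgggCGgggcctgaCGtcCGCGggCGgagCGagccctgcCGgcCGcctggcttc
COL4A5 (chrX:108439588-108439837, plus strand): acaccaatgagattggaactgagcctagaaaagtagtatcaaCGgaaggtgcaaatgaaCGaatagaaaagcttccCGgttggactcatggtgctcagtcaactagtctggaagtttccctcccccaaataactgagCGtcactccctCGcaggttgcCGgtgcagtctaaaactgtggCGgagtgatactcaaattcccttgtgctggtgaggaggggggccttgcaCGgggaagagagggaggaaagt
THBS1 (chr15:39580829-39581078, plus strand): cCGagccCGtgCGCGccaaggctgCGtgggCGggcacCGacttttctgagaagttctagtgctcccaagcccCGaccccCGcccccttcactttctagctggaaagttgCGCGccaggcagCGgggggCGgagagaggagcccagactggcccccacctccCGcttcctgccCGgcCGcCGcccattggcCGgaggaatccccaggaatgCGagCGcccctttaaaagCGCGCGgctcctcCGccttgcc
LAMC1 and LAMA5 had 32 CG dinucleotides each in this stretch, COL4A5 8 and THBS1 24, where the median of all 35116 promoter windows was 11 (quartiles 3 and 23). The genes shown are examples and do not stand for all genes that rose or fell. The core motifs of FOXA factors, TGTTTAC and TATTTAC, were searched on both strands in the full windows of 250 bases before to 50 after the RefSeq start, which for some genes, such as SPARC, SMOC1 and FBN1, lies inside the gene as GENCODE 29 gives it. Windows were found for 61 of the 77 genes. A match stood in 0 of the 20 called higher, 0 of the 11 called lower and 0 of the 5 not called. Among the 25 below the filter, 1 had a match, LAMA4. Of all promoter windows 5.97% held a match. That share counts windows, while a matrix gene with several windows was counted once. The median GC content was 66.7% over the 61 genes and 58.7% over all windows, so the shares are not matched for base composition. It was 69.3% over the genes called higher and 70% over those called lower. These letters describe the windows alone, which leave out enhancers and alternative starts beyond the table.

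Among the laminin chain genes, LAMC1 and LAMC3 rose from low levels. LAMC1 (chromosome 1, 183023460 to 183145592, GENCODE 29 on GRCh38) encodes the gamma 1 chain found in most laminin trimers. Counts of LAMC1, listed here as everywhere by replicate from 1 to 4, were 42, 45, 48 and 36 in control and 16205, 17945, 13353 and 15605 in knockdown. Every knockdown library lay far above every control library, at 706 CPM ± 26.3 against 1.95 CPM ± 0.304 (SD, n = 4 each), or 362-fold (log2 fold change 8.50 with SE 0.119, edgeR adjusted p 3.46e-32; exact two-sided permutation p = 0.0286, the smallest that 4 against 4 can give). LAMC3, which encodes the gamma 3 chain, had 3, 0, 0 and 0 counts in control and 81, 94, 69 and 91 in knockdown, at least 26.4-fold higher (edgeR adjusted p 5.37e-14).

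The alpha 5 chain gene LAMA5 (chromosome 20, 62307955 to 62367312) was the main alpha chain in both groups. Its counts were 9522, 8848, 9430 and 9789 in control and 21546, 24356, 17922 and 21141 in knockdown, a rise from 427 CPM ± 19.9 to 951 CPM ± 43.3 with no overlap (log2 fold change 1.16 with SE 0.0471, edgeR adjusted p 3.51e-19). LAMA5 shares 244 bp of exon with ADRM1 on the opposite strand, which averaged 3622 counts in control and 3725 in knockdown. LAMA3, the alpha chain of the epithelial laminin, moved the other way. It fell from 307, 296, 267 and 315 counts to 47, 56, 34 and 51, or from 13.4 CPM ± 0.572 to 2.10 CPM ± 0.289 (log2 fold change -2.67 with SE 0.106, edgeR adjusted p 6.55e-18). Its beta partner LAMB3 rose, from 107, 118, 113 and 125 counts to 599, 666, 474 and 538 (log2 fold change 2.28 with SE 0.0498, edgeR adjusted p 1.17e-19). LAMA1 was low in both groups, with 7, 20, 6 and 14 counts in control and 24, 27, 15 and 18 in knockdown, and the groups overlapped. Its log2 fold change of 0.81 (SE 0.393) had an edgeR adjusted p of 0.019, which became 0.0785 without control replicate 1, 0.0772 without control replicate 3, 0.0647 without knockdown replicate 2, 0.0608 with DESeq2 and 0.0542 with a regional shift removed, taken as the median over the 50 nearest protein-coding genes.

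Both abundant beta chains differed little between the groups. LAMB1 had 8173, 8283, 7458 and 9110 counts in control and 9395, 10260, 7762 and 8667 in knockdown, 374 CPM ± 15.7 against 404 CPM ± 11.1 (log2 fold change 0.11 with SE 0.0363, edgeR adjusted p 0.00628). Its groups did not overlap, but the difference was small, and it was 0.19 with scaling by library size only and 0.29 with the regional shift removed. LAMB2 had 2816, 2644, 2620 and 2771 counts in control and 2909, 2924, 2320 and 2640 in knockdown, and its groups overlapped. Its log2 fold change of -0.03 (SE 0.0296) missed the threshold (edgeR adjusted p 0.52), was positive under upper-quartile (0.033) and library-size scaling (0.057), and was -0.26 (adjusted p 8.76e-07) with the regional shift removed. LAMB4, with 10, 17, 10 and 14 counts in control and 10, 16, 7 and 13 in knockdown, was not called (edgeR adjusted p 0.622).

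Set on a common scale of CPM per kb of exon, the laminin chains of the control cells were unequal. LAMA5 stood at 29.9 ± 1.39, LAMB1 at 46.0 ± 1.93, LAMB2 at 17.9 ± 0.646 and LAMC1 at 0.232 ± 0.0361 (SD, n = 4 each). In knockdown LAMA5 stood at 66.6 ± 3.03, LAMB1 at 49.6 ± 1.37 and LAMC1 at 84.0 ± 3.13 CPM per kb (SD, n = 4 each). LAMC1 thus went from the lowest to the highest of these 3 chains, which together form a laminin trimer known from epithelia. LAMA5 held 96.8% ± 0.245 of the alpha chain signal in control and 99.6% ± 0.0498 in knockdown. The share of LAMB3 in the beta chain signal went from 1.72% ± 0.0994 to 7.46% ± 0.223.

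**Figure D2:**
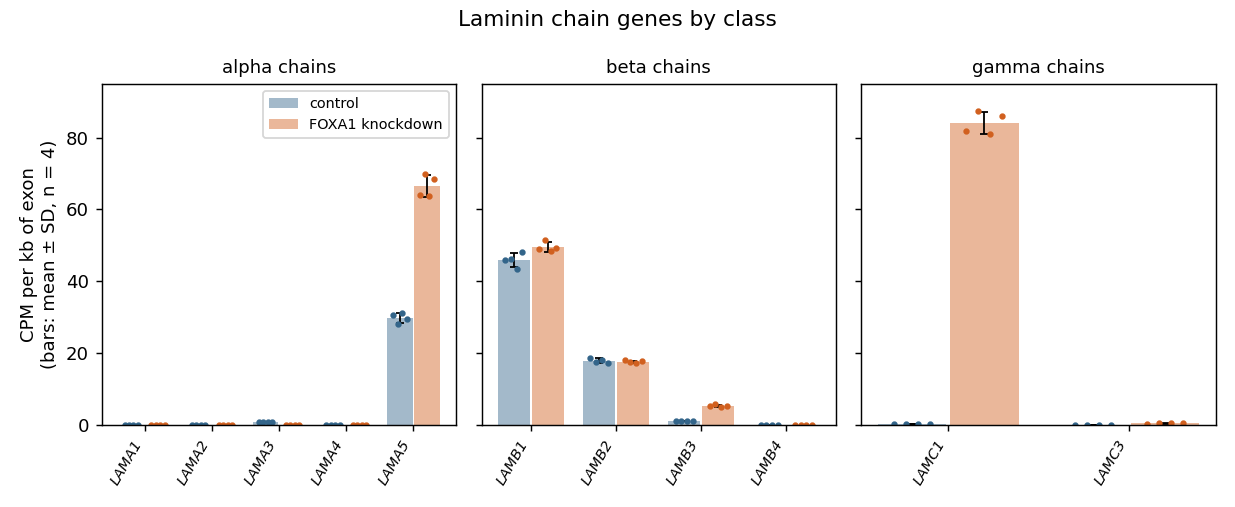
Level of laminin chain genes in CPM per kb of exon, by class, with bars for the mean, error bars for the SD and points for the 4 control (blue) and 4 knockdown (orange) libraries. LAMC1 is near 0 in control and at 84.0 CPM per kb in knockdown, while LAMB1 and LAMB2 stand at similar heights in both groups.

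Of the genes that link basement membrane networks, agrin fell, perlecan differed little and the nidogens were barely detected. AGRN, which encodes the heparan sulfate proteoglycan agrin, was abundant in both groups. It fell from 17619, 16374, 17312 and 17948 counts to 13471, 14697, 10822 and 12693, or from 786 CPM ± 35.2 to 578 CPM ± 21.7 (log2 fold change -0.44 with SE 0.0424, edgeR adjusted p 3.64e-11), with no overlap. The log2 fold change of AGRN was -0.20 with the regional shift removed. HSPG2, the gene of perlecan, had 2951, 2803, 2897 and 3132 counts in control and 2648, 3177, 2287 and 2706 in knockdown, and its groups overlapped. Its log2 fold change of -0.14 (SE 0.0537) had an edgeR adjusted p of 0.00434, but of 0.0865 under upper-quartile and 0.232 under library-size scaling. The nidogens, which bridge laminin and type IV collagen, were below the filter. NID1 had a count in 1 library only, 4 in knockdown replicate 2, and NID2 had at most 6 counts in a library.

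Type IV collagen, the network collagen of basement membranes, was low in both groups, and 2 of its 3 tested chain genes fell. COL4A5, which encodes the alpha 5 chain, had the highest level per kb of exon in control. It fell from 262, 272, 290 and 299 counts to 50, 41, 29 and 33, or from 12.8 CPM ± 0.772 to 1.70 CPM ± 0.295 (log2 fold change -2.89 with SE 0.124, edgeR adjusted p 7.68e-18), and no knockdown library reached the range of the controls. The chains of the common type IV trimer come from COL4A1 and COL4A2, a divergent pair on chromosome 13. COL4A2 had 111, 102, 99 and 103 counts in control and 72, 77, 51 and 67 in knockdown (log2 fold change -0.66 with SE 0.0758, edgeR adjusted p 2.1e-05). COL4A1 had 26, 26, 31 and 34 counts in control and 21, 34, 18 and 25 in knockdown, with overlapping groups and no call (log2 fold change -0.28, SE 0.172, edgeR adjusted p 0.243). The 50 nearest coding genes had a median of -0.59 around COL4A2 and -0.63 around COL4A1. With that shift removed COL4A2 stood at -0.066 and was not called (edgeR adjusted p 0.628), and COL4A1 stood at 0.35 (adjusted p 0.142). COL4A4 was below the filter, with 0, 2, 2 and 3 counts in control and 14, 10, 15 and 13 in knockdown. Summed over its 6 chain genes, type IV collagen came to 1.45 CPM per kb in control and 0.459 in knockdown.

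The multiplexins, basement membrane collagens whose end fragments include endostatin, divided. COL18A1 fell from 2513, 2322, 2534 and 2585 counts to 656, 681, 521 and 631, or from 113 CPM ± 6.28 to 27.9 CPM ± 1.09 (log2 fold change -2.02 with SE 0.0491, edgeR adjusted p 2.53e-22). It shares 1401 bp of exon with SLC19A1 on the opposite strand, which averaged 1190.2 counts in control and 893 in knockdown. COL15A1 rose from 197, 224, 197 and 195 counts to 289, 310, 259 and 294 (log2 fold change 0.49 with SE 0.0655, edgeR adjusted p 3.27e-06). Neither gene's groups overlapped.

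Type VI collagen, which forms beaded microfilaments next to basement membranes, is assembled from alpha 1, alpha 2 and a longer alpha 3 chain. COL6A1 (chromosome 21, 45981737 to 46005050) had 17, 10, 13 and 7 counts in control and 3455, 3657, 2818 and 3283 in knockdown. It rose from 0.538 CPM ± 0.206 to 148 CPM ± 3.65 (log2 fold change 8.10 with SE 0.284, edgeR adjusted p 3.35e-29), and its groups lay far apart. COL6A2, 93046 bp downstream with no counted coding gene between, had 0, 0, 1 and 1 counts in control and 111, 111, 73 and 95 in knockdown, at least 30.5-fold higher (edgeR adjusted p 3.83e-16). COL6A3, the gene of the longer chain, had 3, 3, 1 and 6 counts in control and 4, 6, 4 and 1 in knockdown, and COL6A6, an alternative to it, at most 1 in a library. In knockdown COL6A1 stood at 27.7 ± 0.683 and COL6A2 at 0.807 ± 0.0814 CPM per kb (SD, n = 4 each), so COL6A1 held 97.1% ± 0.243 of the type VI signal.

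Of the fibrillar collagen genes, COL5A2 fell and COL3A1 rose, each by more than an order of magnitude. COL5A2, which encodes the alpha 2 chain of type V collagen, had 1153, 1156, 1040 and 1194 counts in control and 39, 31, 25 and 38 in knockdown. It fell from 51.5 CPM ± 1.54 to 1.49 CPM ± 0.255, which left 2.89% of the control level (log2 fold change -5.11 with SE 0.124, edgeR adjusted p 7.75e-26). Its partner chain COL5A1 rose slightly, from 116, 120, 138 and 131 counts to 182, 189, 147 and 166 (log2 fold change 0.42 with SE 0.0685, edgeR adjusted p 0.000247). COL3A1, the single chain of type III collagen, ends 19149 bp from the end of COL5A2 on chromosome 2, with no counted coding gene between. It had 1, 0, 0 and 1 counts in control and 97, 104, 90 and 93 in knockdown, at least 30.3-fold higher (edgeR adjusted p 2.3e-16). These neighbours therefore changed in opposite directions. COL1A1 had 103, 123, 134 and 113 counts in control and 107, 106, 79 and 95 in knockdown, and its partner COL1A2 at most 3 in a library. The log2 fold change of COL1A1 was -0.31 (SE 0.105, edgeR adjusted p 0.0169). That call was lost without control replicate 3 (-0.23, adjusted p 0.0817), with upper-quartile (0.0514) or library-size scaling (0.0749) and with DESeq2 (0.0524). COL27A1 rose from 23, 33, 24 and 33 counts to 67, 79, 60 and 55 (log2 fold change 1.19 with SE 0.141, edgeR adjusted p 7.43e-07).

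The fibril-associated collagens, which decorate the surface of collagen fibrils, included genes that rose from at or near 0. COL14A1 had 15, 15, 7 and 12 counts in control and 8851, 9633, 7595 and 8190 in knockdown, a rise from 0.554 CPM ± 0.168 to 384 CPM ± 8.30 (log2 fold change 9.42 with SE 0.234, edgeR adjusted p 7.1e-32). COL21A1 had 0 counts in every control library and 309, 331, 275 and 283 in knockdown, at least 94.4-fold higher (edgeR adjusted p 5.28e-20). The knockdown libraries were high for both genes without exception. COL12A1, by contrast, was abundant in both groups, with 4213, 4452, 3925 and 4897 counts in control and 4402, 5078, 3813 and 4285 in knockdown. Its log2 fold change of -0.01 (SE 0.0504, edgeR adjusted p 0.846) was positive under upper-quartile (0.051) and library-size scaling (0.075), and with the regional shift removed it was -0.24 (adjusted p 7.76e-06). COL16A1 had 194, 148, 157 and 182 counts in control and 206, 237, 173 and 202 in knockdown, with overlapping groups (log2 fold change 0.25, SE 0.0907, edgeR adjusted p 0.017). Its call was lost without control replicate 2 (adjusted p 0.0766) or knockdown replicate 2 (0.0537), and with the regional shift removed the value was -0.15 (0.140).

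Type IX collagen is made of alpha 1, alpha 2 and alpha 3 chains, and the genes of the last 2 exchanged places. COL9A2 fell from 762, 743, 776 and 797 counts to 412, 453, 321 and 357 (log2 fold change -1.02 with SE 0.0503, edgeR adjusted p 1.11e-14). COL9A3 rose from 26, 31, 21 and 21 to 1152, 1166, 895 and 1010 (log2 fold change 5.39 with SE 0.140, edgeR adjusted p 1.07e-25). COL9A3 shares 45 bp of exon with TCFL5 on the opposite strand, which averaged 220.0 counts in control and 793 in knockdown. Per kb of exon, COL9A2 held 97.2% ± 0.629 of the type IX signal in control and 29.5% ± 0.906 in knockdown, and COL9A3 the rest, COL9A1 having at most 1 count in a library (SD, n = 4 each).

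**Figure D3:**
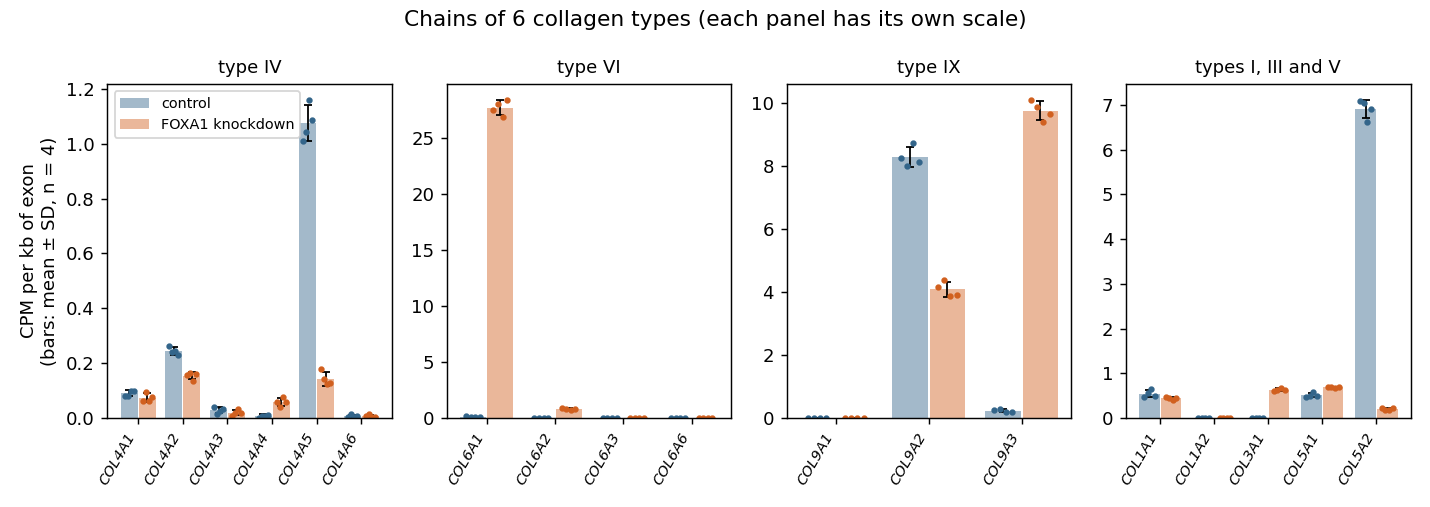
Level in CPM per kb of exon of the chains of collagen types IV, VI, IX and I, III and V, with bars for the mean, error bars for the SD and points for the 4 control (blue) and 4 knockdown (orange) libraries; each panel has its own scale from 0. COL4A5, COL9A2 and COL5A2 stand highest in control, and COL6A1 and COL9A3 highest in knockdown.

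SPARC family members are matricellular proteins that bind calcium and collagen or growth factors rather than forming fibres. SPARC (chromosome 5, 151661096 to 151687165) had 0, 1, 0 and 1 counts in control and 21979, 22304, 18348 and 20485 in knockdown, where it stood at 933 CPM ± 14.1 (SD, n = 4). No control library held more than a single count, so the knockdown level was at least 6546-fold higher (edgeR adjusted p 2.7e-33). SMOC1 rose from 381, 397, 402 and 421 counts to 4351, 4434, 3445 and 4105, or from 18.2 CPM ± 0.681 to 183 CPM ± 6.08 (log2 fold change 3.33 with SE 0.0360, edgeR adjusted p 2.04e-27). SMOC2 rose from 11, 19, 10 and 19 to 165, 160, 128 and 147 (log2 fold change 3.32 with SE 0.219, edgeR adjusted p 8.51e-16), a log2 change close to that of SMOC1. SPOCK1, a proteoglycan of the family, fell from 29, 43, 34 and 29 to 17, 12, 11 and 28, with knockdown replicate 4 inside the control range in CPM (1.54 CPM ± 0.319 against 0.767 CPM ± 0.365, edgeR adjusted p 0.00149). Its log2 fold change was -1.71 with the regional shift removed, its 50 nearest coding genes having a median of 0.71. SPARCL1 was below the filter, with 6, 4, 3 and 2 counts in control and 9, 18, 6 and 6 in knockdown. The 50 coding genes nearest to SPARC had a median log2 fold change of 0.52, far below that of SPARC in size.

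Among the large adhesive glycoproteins, fibulin 1 rose while fibronectin and fibrillin fell. FBLN1, a fibulin that associates with basement membranes and elastic fibres, stood first of the matrix genes per kb of exon. Its counts were 12730, 12388, 12529 and 13258 in control and 34020, 34896, 26663 and 31979 in knockdown, or 578 CPM ± 14.2 and 1428 CPM ± 51.3 (log2 fold change 1.31 with SE 0.0316, edgeR adjusted p 1.32e-21). FBLN2 changed little, from 3868, 3617, 3773 and 3838 counts to 4335, 4745, 3668 and 4199 (log2 fold change 0.15 with SE 0.0382, edgeR adjusted p 0.000884), although its groups did not overlap. FN1, which encodes fibronectin, fell from 2494, 2608, 2416 and 2761 counts to 916, 1015, 705 and 871, leaving 33.6% of the control level (log2 fold change -1.57 with SE 0.0480, edgeR adjusted p 1.03e-20). FBN1, the gene of the microfibril protein fibrillin 1, fell from 567, 577, 453 and 626 to 101, 134, 105 and 109, or from 25.2 CPM ± 2.47 to 5.04 CPM ± 0.534 (log2 fold change -2.32 with SE 0.109, edgeR adjusted p 5.94e-18). All 4 knockdown libraries lay below all control libraries for both.

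Both thrombospondins tested, adhesive proteins that also bind growth factors, were lower. THBS1 fell from 1202, 1195, 1116 and 1344 counts to 661, 720, 569 and 620 (log2 fold change -0.93 with SE 0.0308, edgeR adjusted p 1.67e-15), and by 0.45 with the regional shift removed. THBS3 fell from 210, 199, 186 and 212 to 137, 128, 110 and 88 (log2 fold change -0.82 with SE 0.118, edgeR adjusted p 6.03e-08); it shares 146 bp of exon with MTX1 on the opposite strand. THBS2, periostin (POSTN) and tenascin C (TNC) had at most 5 counts in any library. MATN2, which encodes matrilin 2, rose from 12, 10, 8 and 12 counts to 114, 85, 72 and 79 (log2 fold change 3.02 with SE 0.155, edgeR adjusted p 4.75e-13). VCAN, the gene of the proteoglycan versican, had 1, 1, 2 and 0 counts in control and 26, 28, 21 and 29 in knockdown, at least 8.18-fold higher (edgeR adjusted p 5.03e-10).

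Lysyl oxidases cross-link collagen and elastin, and 3 of the 4 tested were higher, all from low levels. LOXL3 rose from 47, 41, 45 and 48 counts to 157, 150, 137 and 165 (log2 fold change 1.73 with SE 0.0809, edgeR adjusted p 1.49e-12) and LOXL1 from 38, 25, 25 and 22 to 72, 64, 47 and 59 (log2 fold change 1.11 with SE 0.195, edgeR adjusted p 6.82e-06). LOXL3 shares 625 bp of exon with HTRA2 on the opposite strand, which averaged 667 counts in control and 792 in knockdown, and LOXL1 shares 335 bp with its antisense gene. LOX shares 138 bp with SRFBP1 on the opposite strand, which averaged 300 counts in control and 378.5 in knockdown. LOXL2 shares 120 bp with ENTPD4 on the same strand, which averaged 1019 and 1539. LOX had 3, 5, 5 and 8 counts in control and 17, 18, 15 and 13 in knockdown (log2 fold change 1.55 with SE 0.256, edgeR adjusted p 0.000149). Its 50 nearest coding genes on chromosome 5 had a median of 0.83, and with that shift removed LOX was at 0.73 and not called (adjusted p 0.0527). LOXL2 was not called at -0.11 (edgeR adjusted p 0.392), but was at -0.24 (0.0408) without knockdown replicate 4, and LOXL4 was below the filter.

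Further collagens changed at low levels. COL7A1, the anchoring fibril collagen, rose from 4, 7, 8 and 13 counts to 60, 53, 55 and 56 (log2 fold change 2.78 with SE 0.320, edgeR adjusted p 1.44e-10). COL28A1 fell from 47, 48, 36 and 49 to 12, 12, 10 and 12 (log2 fold change -1.97 with SE 0.0895, edgeR adjusted p 6.35e-09). COL17A1, the hemidesmosomal transmembrane collagen, had 11, 5, 6 and 7 counts in control and 31, 4, 12 and 18 in knockdown, with knockdown replicate 2 low. It was not called (log2 fold change 1.14, edgeR adjusted p 0.0586), but was called at 1.49 (0.000673) without knockdown replicate 2 and at 1.41 (0.0392) without control replicate 1. The 29 genes below the filter never exceeded 19 counts in a library, and the median of their highest counts was 6. The 2 groups had separate CPM ranges for 5 of them. Among these were COL4A4 and SPARCL1 given above, COL8A2 with at most 6 counts, and COL24A1, with 8, 8, 11 and 13 counts in control and 2, 2, 0 and 1 in knockdown. LAMA2 had at most 14 counts in a library, COL8A1 at most 12 and COL11A1 and COL11A2 at most 9 each. COL2A1, COL4A3, COL10A1, COL13A1, COL19A1, COL23A1, COL25A1 and COL26A1 stayed at or below 8 counts in every library.

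Per kb of exon, the order of the matrix genes differed between the groups. In control FBLN1 (79.3 ± 1.94 CPM per kb) stood first, followed by AGRN (73.1 ± 3.27), LAMB1, FBLN2 and LAMA5, and none of these overlapped the next in the order. In knockdown FBLN1 (196 ± 7.05) and SPARC (193 ± 2.91) stood first with overlapping ranges, followed by LAMC1 and LAMA5, which did not overlap, and by AGRN (53.8 ± 2.02), whose range overlapped that of LAMB1. COL14A1 and SMOC1 came next (SD, n = 4 each).

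Neighbouring matrix genes did not all move the same way. COL6A1 and COL6A2 rose together on chromosome 21, while COL18A1, 468016 bp from COL6A1 with 1 counted coding gene between, fell. COL4A5 fell while its divergent partner COL4A6, 346 bp away on the X chromosome, had at most 3 counts in a library. LAMA5 and COL9A3, 448931 bp apart on chromosome 20, both rose, by 1.16 and 5.39 on the log2 scale, while the 50 genes nearest to each had a median of -0.05.

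**Figure D4:**
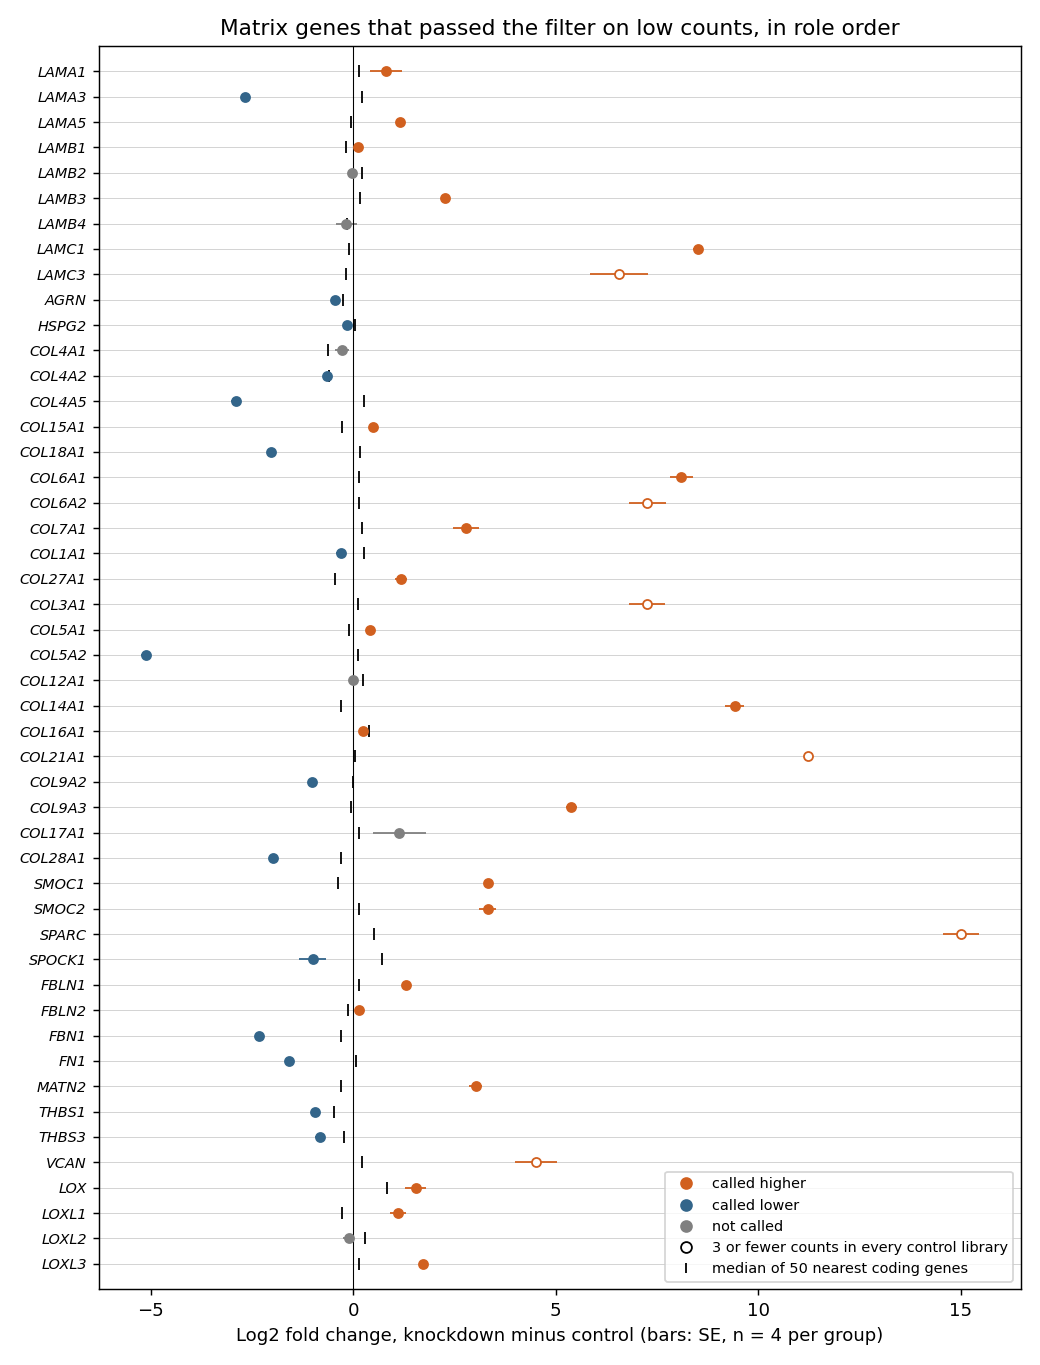
Log2 fold change (knockdown minus control) of the 48 matrix genes that passed the filter, in role order, with bars for the SE; open circles mark genes with control libraries of at most 3 counts, whose fitted value depends on the prior count, and ticks mark the median of the 50 nearest coding genes. The ticks stay between -0.63 and 0.83, while many genes lie far outside that range in either direction.

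Genes that modify and export collagen chains changed in both directions. Of 31 listed genes 29 were found and 23 tested, of which 9 were higher (39.1%) and 13 lower (56.5%), beside 39.4% and 37.7% of all genes tested, with a median log2 fold change of -0.24 against 0.02 for all genes tested. P4HB, the shared subunit of prolyl 4-hydroxylase, fell from 2246 CPM ± 82.9 to 593 CPM ± 10.9 (log2 fold change -1.92 with SE 0.0296, edgeR adjusted p 3.96e-25). PLOD2, a lysyl hydroxylase, fell from 71.7 CPM ± 6.91 to 17.7 CPM ± 1.03, and the isomerase genes FKBP14 and PPIB had log2 fold changes of -1.93 and -0.72. P3H2, a prolyl 3-hydroxylase known for its action on type IV collagen, rose from 9.95 CPM ± 1.26 to 80.7 CPM ± 2.73 (log2 fold change 3.02 with SE 0.0962, edgeR adjusted p 2.86e-23). BMP1, the procollagen C-proteinase, rose from 4.59 CPM ± 0.409 to 26.0 CPM ± 1.28 (log2 fold change 2.50 with SE 0.0736, edgeR adjusted p 5.09e-20). PLOD3 and FKBP10 rose by 0.65 and 0.63 on the log2 scale. The summed level of the 29 genes was between 4054 and 4250.2 CPM in control and between 2346 and 2437 CPM in knockdown. Most of this difference came from P4HB alone.

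Receptors for the matrix were called in each direction about as often as all genes. Of 24 listed, 20 were tested, 9 higher (45%) and 8 lower (40%), beside 39.4% and 37.7% of all genes tested. Their median log2 fold change was 0.0047. At least 2-fold changes were called for 6 higher and 2 lower of the 20, beside 14.9% and 13.4% of all genes tested. ITGA6, the alpha chain of laminin-binding integrins, rose from 0.225 CPM ± 0.0983 to 163 CPM ± 4.02 (log2 fold change 9.45 with SE 0.297, edgeR adjusted p 3.19e-30). ITGA5, the alpha chain of the fibronectin receptor, rose from 3.02 CPM ± 0.426 to 34.8 CPM ± 1.34 (log2 fold change 3.53 with SE 0.102, edgeR adjusted p 8.91e-23), opposite in direction to FN1. CD44, a hyaluronan receptor, and SDC3, a syndecan, rose by 2.99 and 1.21 on the log2 scale. ITGB6 fell from 57.6 CPM ± 5.47 to 8.69 CPM ± 0.248 and the syndecan SDC1 from 476 CPM ± 17.6 to 141 CPM ± 5.44 (edgeR adjusted p 1.06e-20 and 1.83e-23). BCAM, a receptor for laminin alpha 5, had a log2 fold change of -0.86 and ITGB5 of -0.83.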

How the data were processed

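Total RNA from 4 control and 4 FOXA1 knockdown SKBR3 libraries was sequenced, and the authors deposited a table of raw counts per gene. The submitters' processing notes name FastQC, Salmon 1.9, DESeq2 3.16 and the build hg38. How counts were summed to genes, the annotation and the use of strand are not given in the sources used here, so reads of overlapping genes on opposite strands cannot be told apart. The deposited values were whole numbers and were used unchanged.

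Genes were tested with edgeR 4.0.16 (R 4.3.3) by the quasi-likelihood test with robust estimation, TMM scaling and the default filter (at least 10 counts in a group's worth of libraries, 15 in total), on all 8 libraries and without covariates. P-values were adjusted by Benjamini-Hochberg over all 16430 genes tested, at a threshold of 0.05. SEs come from the spread of log2 CPM with 0.5 added to each count. Folds over genes with at most 3 counts in every control library are bounds computed with 3 counts per library. Such bounds cover counting error only. Positions and exon lengths come from GENCODE 29, matched by gene ID. Exon length is the union of all annotated exons of a gene, which can exceed the transcripts in use. The order of genes per kb depends on this length, and the SD between libraries does not cover it. The fit was tested on simulated data. Alternatives were 3 other scalings, 2 other filters, DESeq2 1.42.0, no robust estimation, a block for replicate number, removal of the regional shift and leaving out each library.

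Named by rule were FOXA1, ERBB2, every gene averaging at least 10 CPM in a group, those called with a log2 change of at least 2, undetected chain partners, and up to 4 genes per direction of each partner list. The other matrix genes were named after their values were seen, so that each tested one is accounted for. The members and lists were chosen with earlier results of these data known. Protein sequences were not used here. One of the 77 genes is not reported here by name.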

Additional observations from a re-analysis of the deposited data

Results flagged for a closer look

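One level lay away from the rest of its group. LAMB3 in control replicate 1 stood at 4.9 CPM, below the other control libraries at 5.36 to 5.39 CPM, with a gap to the nearest of 0.939 of the group's range, past the 95% limit of Dixon's test for 4 samples. Of 48 groups of 4 libraries examined, 1 was past the limit, and chance alone gives about 1 in 20. The rise of LAMB3 in knockdown is far larger than this gap.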

How the results depend on the processing

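Of 1243 values of single genes under 17 alternative settings, 1206 kept their direction and their side of the threshold, and 62 of 74 genes did so in every setting. Testing none but genes averaging 50 counts or more left 17 members higher (12 by at least 2-fold) and 13 lower (7 by at least 2-fold), and 8 further matrix genes higher and 8 lower, beside 5206 higher and 5073 lower of 12421 genes, since fewer genes were tested. Log2 fold changes that turned sign were those of LAMB2 (0.033 with upper-quartile, 0.057 with library-size scaling), COL12A1 (0.051 and 0.075 with these scalings, 0.0053 at a mean of 50 counts, -0.042 to 0.0195 over the fits without 1 library), LAMB4 (-0.32 to 4.65e-06 over these fits), COL4A1 (0.35 with the regional shift removed) and COL16A1 (-0.15 likewise); for the regional shift and the left-out libraries the cause was not tested. Leaving out 1 library at a time gave 27 to 29 members higher and 15 to 17 lower.

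Replicate numbers are not stated to mark a shared batch. Deviations of same-numbered libraries correlated at -0.0307 to 0.0563, other pairs at -0.0411 to 0.0507, and 2 of 8 libraries correlated best with their own number. With a replicate block 28 members were higher and 15 lower, and COL17A1 was called (adjusted p 0.0107 by edgeR). At these depths genes below the filter were described by counts or CPM without a test. Genes with fewer than 10 counts in every control library were tested where the filter kept them. Arms reduced to 3 libraries rest on a pooled spread.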

Other observations

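Matrix genes outside the collagens, laminins and the other glycoproteins above also changed in both directions. Of 49 listed, 46 were found and 27 tested, of which 13 were higher (48.1%) and 12 lower (44.4%), beside 39.4% and 37.7% of all genes tested, with a median log2 fold change of -0.04 against 0.02 for all genes tested. TGFBI, an adhesive protein that binds integrins, had 232, 226, 244 and 256 counts in control and 0, 1, 0 and 2 in knockdown, at least 71.2-fold lower (edgeR adjusted p 4.01e-20). NPNT, an integrin ligand of basement membranes, fell from 231, 241, 225 and 224 counts to 10, 7, 6 and 4 (log2 fold change -5.09 with SE 0.230, edgeR adjusted p 1.1e-19). FRAS1, of the complex that ties epithelium to mesenchyme, fell from 79.1 CPM ± 4.20 to 2.92 CPM ± 0.164 (log2 fold change -4.76 with SE 0.0557, edgeR adjusted p 9.73e-27; levels as mean ± SD over 4 libraries). The laminin-related netrins divided, NTN4 falling from 153 CPM ± 5.81 to 25.1 CPM ± 1.14 and NTN1 rising from 10.6 CPM ± 0.782 to 27.9 CPM ± 1.73 (edgeR adjusted p 3.51e-25 and 7.19e-16). VTN, the gene of vitronectin, rose from 0.776 CPM ± 0.195 to 36.5 CPM ± 2.20 (log2 fold change 5.55 with SE 0.175, edgeR adjusted p 2.91e-24). The binding proteins that hold latent TGF-beta in the matrix divided. LTBP3 and LTBP4 rose by 0.82 and 0.78 on the log2 scale and LTBP2 from 0.476 CPM ± 0.0932 to 2.69 CPM ± 0.338, while LTBP1 fell from 152 CPM ± 2.92 to 51.6 CPM ± 0.822 (edgeR adjusted p 2.71e-22); LTBP1 and LTBP2 were named after their values were seen. The summed level of the 46 genes was between 942 and 968 CPM in control and between 577 and 588 CPM in knockdown, opposite in direction to the sum of the 77 genes above.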
